A study of Homo sapiens with 12 samples.

Results

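The genes described here are 36 genes for making and moving amino acids, chosen by name from published knowledge of these pathways. They were chosen with earlier results of these data known, so counts of members beside all genes are descriptive. They are 25 enzymes and 11 transporters out of the 16426 genes present in both expression tables. RNA sequencing gave their levels in 2 established cell lines from human lung adenocarcinoma, HCC827 and NCI-H1975, both known for an activating change in EGFR. For the compound, each line was given 2.5 µM or 5 µM of 18E, a compound known in the labels only by this code name, with 24 h stated for the treated samples, and the reference was DMSO. In the siRNA experiment each line was given siDYN-2 or siDYN-1, with 48 h stated, and the reference was siCON. The series title names autophagy and LIC1, another name of DYNC1LI1, a subunit gene of the dynein motor; the labels do not spell out the target of siDYN. Each line and treatment had 1 library (12 libraries), so the 2 lines stand as the replicates of a treatment. Where siDYN is compared with siCON, both siRNAs count as 1 treatment, so the 2 siRNAs of a line, which share 1 siCON library, stand as replicates too. A p-value weighs a change against how far these libraries disagree. All 6 libraries of an experiment enter each fit and share 1 estimate of spread for a gene. The SE and p at 1 dose therefore also hold how far the lines disagree at the other dose. A label of n = 2 lines counts the lines behind a change, not the libraries behind its SE. The labels do not say whether any culture was repeated, and each line is a single tumour-derived model.

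Levels are in FPKM, a read abundance corrected for transcript length and library size, as the authors deposited them. Total FPKM ran from 486409 to 685680 and the number of genes listed at 0 from 534, in the HCC827 library with 5 µM 18E, to 2212, and the read depth is unknown. EPCAM, an epithelial surface protein, was between 217 and 502 FPKM and KRT18, an epithelial keratin, between 735 and 3014 FPKM in the 12 libraries. Of the 9 epithelial and lung adenocarcinoma markers, 6 were lower than DMSO in both lines at 5 µM 18E (40.8% of all genes), with a median log2 change of -0.34 against -0.09 over all genes, and 7 were lower than siCON in all 4 siDYN libraries (25.6% of all genes). All 9 were lower at 5 µM than at 2.5 µM in HCC827, against 59.9% of all genes. NKX2-1, a lung lineage factor, was at 32.3 FPKM with DMSO, 21.4 with 2.5 µM and 7.14 with 5 µM in HCC827 and at 44.7, 20.3 and 15.8 FPKM in NCI-H1975. MUC1, a surface mucin, had a log2 change at 5 µM of -1.71 ± 0.38, CDH1, which joins epithelial cells, -0.82 ± 0.24 and EGFR, a growth factor receptor, -0.66 ± 0.16 (SE, n = 2 lines). KRT7, another epithelial keratin, was instead above DMSO at both doses, at 1118, 2154 and 1393 FPKM in HCC827 and at 1154, 1507 and 1681 FPKM in NCI-H1975. At 2.5 µM 1 of the 9 markers was higher and 5 were lower in both lines, against 32.2% and 31.6% of all genes. None passed limma's adjusted test, and the part of these markers in the results on the members was not tested. Of the markers of blood, endothelial and stromal cells, CD14 reached 10.7 FPKM and CSF1R 11.6 FPKM, both in NCI-H1975, and each of the others stayed at or below 1.47 FPKM. DYNC1LI1 was at 1.22 and 2.42 FPKM with siDYN-2 and siDYN-1 against 16.3 FPKM with siCON in HCC827, and at 3.04 and 5.10 FPKM against 23.7 FPKM in NCI-H1975. In the HCC827 library with 5 µM 18E, 7.40% of all tested genes were at least 2-fold above DMSO and 7.24% at least 2-fold below it, against 1.78% and 1.13% in NCI-H1975 at the same dose. In bulk RNA a smaller number of cells of one kind and less RNA in each cell cannot be told apart.

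As background, mammalian cells adjust these genes largely through the integrated stress response. Kinases that sense amino acid shortage, unfolded protein, heme shortage or viral RNA phosphorylate the initiation factor eIF2α. Most translation then slows, while the mRNA of the transcription factor ATF4 is translated more, and ATF4 binds promoters of amino acid transporters, of enzymes for serine, asparagine and cysteine supply and of aminoacyl-tRNA synthetases. In lung adenocarcinoma the serine route also feeds one-carbon units to nucleotide synthesis, and imported cystine feeds glutathione.

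With 2.5 µM 18E most of the 36 genes were higher in both lines. Of the 34 members that passed a filter on low values (1 FPKM or more in 2 or more of the 6 libraries of an experiment), 26 were higher than DMSO in both lines and 4 were lower, against 32.2% and 31.6% of all 11953 tested genes. The 26 include ALDH1L2, which passed the filter only through its treated NCI-H1975 libraries. The split of 26 and 4 became 25 and 5 with quantile normalization or with equal FPKM totals. The median log2 change of the members, on the scale of log2(FPKM + 1), was 0.57, against 0.00 over all tested genes. By line, the median was 0.61 in HCC827, with 28 members higher and 6 lower (52.1% and 47.3% of all genes), and 0.62 in NCI-H1975, also with 28 and 6 (47.7% and 51.6%). A doubling or more in each line was seen for 4 members, ASNS, CHAC1, CTH and PCK2, against 0.251% of all tested genes. No member passed limma's test with Benjamini-Hochberg adjustment over all genes (0 members, and 0 of all tested genes or 0%), and the smallest adjusted p of a member was 0.534, for CTH. At an unadjusted p under 0.05, 13 members were higher and 1 was lower, against 3.25% and 2.01% of all tested genes.

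**Figure D1:**
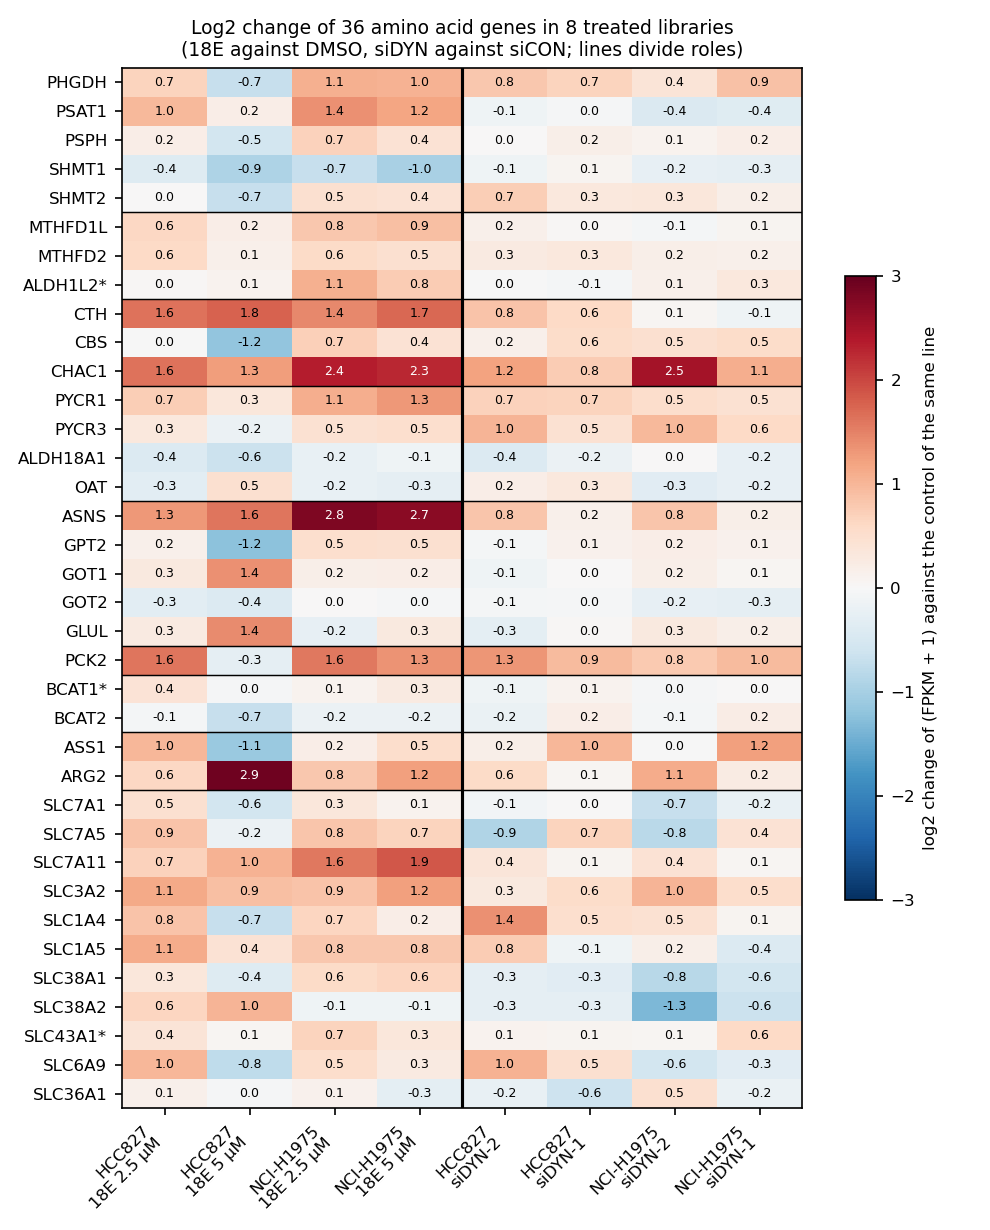
Log2 change of (FPKM + 1) for the 36 genes (down the page, grouped by role between the horizontal lines) in the 8 treated libraries (across), each against the control library of its own line, with 18E left and siDYN right of the thick line; stars mark genes that did not pass the filter in at least 1 table. The 2.5 µM columns are mostly red in both lines, while the HCC827 column at 5 µM mixes red cells, up to 2.91 for ARG2, with blue ones, down to -1.22 for GPT2.

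ASNS, which makes asparagine from aspartate and glutamine, had the largest fitted change of the members at both doses. The gene lies at chr7:97852118-97872542 on the minus strand (GENCODE 29, GRCh38). It was at 82.3 FPKM with DMSO, 204 with 2.5 µM and 251 with 5 µM in HCC827, and at 47.4, 337 and 313 FPKM at the same doses in NCI-H1975. All 4 treated libraries were above both DMSO libraries. The fitted log2 change was 2.05 ± 0.35 (SE, n = 2 lines) at 2.5 µM and 2.15 ± 0.35 at 5 µM (limma adjusted p = 0.915 and 0.10). CHAC1, which breaks down glutathione, was at 9.83 FPKM with DMSO, 32.5 with 2.5 µM and 24.9 with 5 µM in HCC827, and at 1.55, 12.0 and 11.2 FPKM in NCI-H1975. Within each line both doses were above DMSO, with fitted log2 changes of 1.99 ± 0.27 and 1.76 ± 0.27 (limma adjusted p = 0.915 and 0.10).

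CTH, which cleaves cystathionine to cysteine, was at 18.8 FPKM with DMSO, 60.0 with 2.5 µM and 66.6 with 5 µM in HCC827, and at 4.55, 14.2 and 17.2 FPKM in NCI-H1975. Its log2 changes at 2.5 µM and 5 µM were 1.62 and 1.77 in HCC827 and 1.45 and 1.72 in NCI-H1975, close together in the 2 lines. The fitted change at 5 µM was 1.74 ± 0.15, and its adjusted p of 0.0844 was the smallest of the members in that comparison (limma). With a pseudocount of 0.1 CTH passed limma's test at 5 µM, as the only member (adjusted p = 0.0466), beside 16 of all 11953 tested genes. CBS, the enzyme one step earlier that makes cystathionine, had no such pattern. CBS was at 10.0 FPKM with DMSO, 9.86 with 2.5 µM and 3.84 with 5 µM in HCC827, and at 9.53, 16.4 and 13.2 FPKM in NCI-H1975. Reads of CBS may be shared with a near-identical copy, so its level is uncertain.

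The promoters of several of these genes carry a short element through which ATF4, paired with a C/EBP factor, is known to act. The motif TGATGNAA was searched on both strands in RefSeq promoter windows (GRCh38.p14, 250 bases before to 50 bases after the start). Windows were found for 28 members, and 8 of them (28.6%) held the motif, against 1270 of 35116 windows of all genes (3.62%). Of the 11 members with a window that were higher in all 4 libraries with 18E, filter or not, 5 held it, and of the 17 others 3 did. A match is a description of letters and does not show binding. The sequences below belong to the 4 members with a match that ranked first by their smallest change over the 4 libraries with 18E, and to CTH, which ranked first without one. Each is 5′ to 3′ on the gene's strand and the matched letters are in capitals.

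The ASNS line covers chr7:97872409-97872658 (minus strand), the CHAC1 line chr15:40953221-40953470 (plus strand) and the MTHFD1L line chr6:150866236-150866485 (plus strand), each the 250 bases before the RefSeq start. The SLC3A2 line is a 30-base site after the start, chr11:62881719-62881748 (plus strand), and the CTH line covers chr1:70411018-70411267 (plus strand). The matches in CHAC1 and SLC3A2 read on the opposite strand.
ASNS: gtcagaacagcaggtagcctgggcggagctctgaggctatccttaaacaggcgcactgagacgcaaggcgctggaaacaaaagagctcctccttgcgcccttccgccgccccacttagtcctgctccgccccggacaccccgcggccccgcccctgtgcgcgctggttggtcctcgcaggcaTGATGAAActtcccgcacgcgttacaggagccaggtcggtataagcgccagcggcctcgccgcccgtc
CHAC1: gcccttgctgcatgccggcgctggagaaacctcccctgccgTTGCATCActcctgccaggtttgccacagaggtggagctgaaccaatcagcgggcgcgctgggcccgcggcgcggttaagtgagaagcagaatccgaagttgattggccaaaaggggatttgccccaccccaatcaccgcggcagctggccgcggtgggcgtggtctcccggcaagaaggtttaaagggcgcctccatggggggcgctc
SLC3A2: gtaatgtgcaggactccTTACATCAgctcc
MTHFD1L: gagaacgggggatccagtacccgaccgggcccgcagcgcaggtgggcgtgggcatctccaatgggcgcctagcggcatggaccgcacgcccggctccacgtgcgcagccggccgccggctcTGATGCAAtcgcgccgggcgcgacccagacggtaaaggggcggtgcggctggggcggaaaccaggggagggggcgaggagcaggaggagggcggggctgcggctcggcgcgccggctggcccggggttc
CTH: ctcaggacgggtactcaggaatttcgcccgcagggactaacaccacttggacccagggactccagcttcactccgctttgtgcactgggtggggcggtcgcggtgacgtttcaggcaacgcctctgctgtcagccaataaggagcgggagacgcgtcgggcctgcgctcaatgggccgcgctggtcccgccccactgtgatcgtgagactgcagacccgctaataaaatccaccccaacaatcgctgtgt

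For all 5 genes the gene start in GENCODE 29 lies upstream of the RefSeq start used here, by 50 bases in CTH, 134 in ASNS, 509 in CHAC1, 937 in MTHFD1L and 25597 in SLC3A2, so each match lies inside the GENCODE gene and positions are relative to the RefSeq start. The ASNS match lies 68 bases before the start, the MTHFD1L match 129 bases before it and the CHAC1 match 209 bases before it. The matches differ in the free letter: TGATGAAA in ASNS, TGATGCAA in CHAC1 and MTHFD1L, and TGATGTAA in SLC3A2. The other members with a match were GOT1, BCAT1, SLC38A1 and SLC7A1. No match in a window says only that these letters are not in it, as for PSAT1, PHGDH and PCK2.

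The 3 enzymes of serine synthesis from a glycolytic intermediate were all higher at 2.5 µM in both lines. PHGDH, the first step, was at 92.5 FPKM with DMSO, 148 with 2.5 µM and 57.0 with 5 µM in HCC827, and at 25.3, 53.7 and 53.0 FPKM in NCI-H1975. PSAT1, the aminotransferase of the next step, was at 124, 244 and 142 FPKM in HCC827 and at 87.5, 228 and 202 FPKM in NCI-H1975. PSPH, the final phosphatase, was at 123, 143 and 84.7 FPKM in HCC827 and at 45.1, 73.0 and 61.7 FPKM in NCI-H1975, with the reservation that it has near-identical copies in the genome. Thus at 5 µM all 3 stayed above DMSO in NCI-H1975, while in HCC827 PHGDH and PSPH were below DMSO and PSAT1 was just above it. The fitted log2 changes at 2.5 µM were 0.86 ± 0.41 for PHGDH, 1.17 ± 0.25 for PSAT1 and 0.45 ± 0.25 for PSPH (SE, n = 2 lines).

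Of the enzymes that turn serine into glycine and one-carbon units, 1 was lower throughout. SHMT1, the cytosolic hydroxymethyltransferase, was at 58.5 FPKM with DMSO, 44.6 with 2.5 µM and 30.5 with 5 µM in HCC827, and at 73.2, 45.2 and 36.9 FPKM in NCI-H1975. It was lower at each step of dose in both lines, and its fitted log2 change at 5 µM was -0.94 ± 0.16 (limma adjusted p = 0.10). SHMT2, its mitochondrial counterpart, was at 171, 173 and 105 FPKM in HCC827 and at 201, 278 and 273 FPKM in NCI-H1975, so at 5 µM it was below DMSO in HCC827 and above it in NCI-H1975. Of the mitochondrial one-carbon enzymes, MTHFD2, which oxidises methylene-tetrahydrofolate, was at 139, 211 and 155 FPKM in HCC827 and at 121, 183 and 169 FPKM in NCI-H1975. MTHFD1L, which releases formate, was at 23.8, 37.0 and 27.3 FPKM in HCC827 and at 28.1, 50.1 and 53.1 FPKM in NCI-H1975. Both were above DMSO in all 4 treated libraries. ALDH1L2, which oxidises formyl-tetrahydrofolate, was below 0.2 FPKM in every HCC827 library of this experiment and was at 0.39, 1.90 and 1.36 FPKM in NCI-H1975. Its log2 changes in HCC827 at 2.5 µM and 5 µM, 0.04 and 0.10, became -0.04 and -0.01 with quantile normalization.

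Among the enzymes of proline and ornithine, the last step of proline synthesis and its first step differed in direction. PYCR1, the mitochondrial reductase of the last step, was at 35.97 FPKM with DMSO, 60.7 with 2.5 µM and 45.9 with 5 µM in HCC827, and at 37.8, 81.0 and 94.3 FPKM in NCI-H1975. ALDH18A1, which starts the route from glutamate, was at 34.8, 26.0 and 22.0 FPKM in HCC827 and at 44.1, 37.6 and 39.9 FPKM in NCI-H1975, so every treated library was below its DMSO library. PYCR3, the cytosolic reductase, stayed between 6.24 and 9.92 FPKM over the 6 libraries. OAT, which links ornithine to this route, was at 95.5, 76.7 and 133 FPKM in HCC827 and at 221, 190.0 and 182 FPKM in NCI-H1975.

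The amino acid importers were higher at 2.5 µM as well. Of the 10 transporters tested, 9 were higher than DMSO in both lines at 2.5 µM, against 32.2% of all genes, with a median log2 change of 0.76, and 3 were higher in both lines at 5 µM, against 25.5%. SLC3A2, the shared heavy chain that brings several light chains to the cell surface, was at 314 FPKM with DMSO, 693 with 2.5 µM and 587 with 5 µM in HCC827, and at 136, 247 and 323 FPKM in NCI-H1975. SLC7A11, its light chain that exchanges cystine for glutamate, was at 5.40, 9.24 and 12.2 FPKM in HCC827 and at 2.97, 10.9 and 13.4 FPKM in NCI-H1975. Both were above DMSO in all 4 treated libraries, with fitted log2 changes at 5 µM of 1.07 ± 0.18 and 1.45 ± 0.26 (limma adjusted p = 0.10 each). SLC7A5, the light chain for leucine and other large neutral amino acids, was at 273, 497 and 241 FPKM in HCC827 and at 144, 258 and 231 FPKM in NCI-H1975. The 3 genes of these exchangers therefore parted at 5 µM in HCC827, where SLC7A5 was below DMSO and the other 2 were above it.

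The sodium-coupled carriers showed the same parting in HCC827. SLC1A5, a glutamine carrier, was at 109.8 FPKM with DMSO, 240.5 with 2.5 µM and 149 with 5 µM in HCC827, and at 64.4, 114 and 113 FPKM in NCI-H1975. SLC1A4, its relative for alanine, serine and cysteine, was at 5.53, 10.7 and 3.02 FPKM in HCC827 and at 4.55, 7.73 and 5.37 FPKM in NCI-H1975. SLC6A9, a glycine carrier, was at 15.6, 32.3 and 8.78 FPKM in HCC827 and at 4.98, 7.66 and 6.15 FPKM in NCI-H1975. SLC1A4 and SLC6A9 were thus below DMSO at 5 µM in HCC827, whereas SLC1A5 was above it. SLC38A2, which takes up small neutral amino acids, was instead highest at 5 µM in HCC827, with 75.5, 118 and 154 FPKM, and was at 65.5, 59.5 and 60.2 FPKM in NCI-H1975. SLC38A1, its relative, was at 46.0, 58.5 and 35.1 FPKM in HCC827 and at 19.01, 29.01 and 30.1 FPKM in NCI-H1975. SLC7A1, a carrier of arginine and lysine, was at 28.0, 39.7 and 18.7 FPKM in HCC827 and at 14.1, 18.2 and 15.3 FPKM in NCI-H1975. SLC36A1, a proton-coupled carrier found on lysosomes, stayed between 2.23 and 3.62 FPKM.

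**Figure D2:**
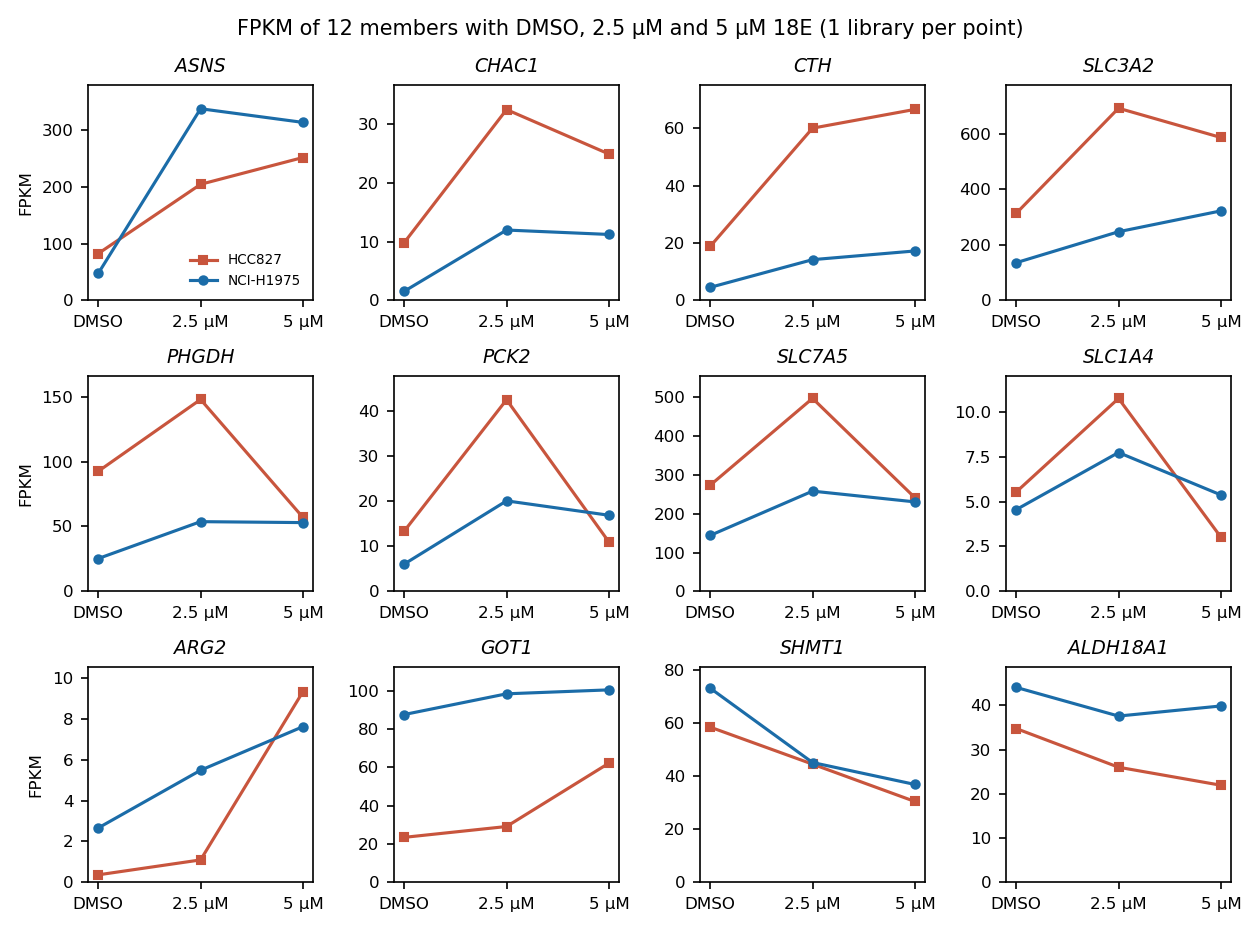
FPKM (vertical axis, from 0) of 12 members at DMSO, 2.5 µM and 5 µM of 18E (horizontal axis) in HCC827 (squares) and NCI-H1975 (circles), 1 library per point. ASNS, CTH and SLC3A2 stay above DMSO at both doses in both lines, PHGDH, PCK2, SLC7A5 and SLC1A4 turn down at 5 µM in HCC827, and SHMT1 is lower at each dose in both lines.

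At 5 µM fewer members were above DMSO. Of the 34 tested, 14 were higher in both lines and 5 lower, against 25.5% and 40.8% of all tested genes. The split of 14, which include ALDH1L2, and 5 became 13 and 4 with quantile normalization and 14 and 6 with equal FPKM totals. The median log2 change was 0.21, against -0.09 over all. The lines differed in this: the median was -0.11 in HCC827 and 0.49 in NCI-H1975, where the medians of all genes were -0.10 and -0.07. In HCC827 16 members were above DMSO and 18 below it, against 42.7% and 57.0% of all genes, and in NCI-H1975 27 and 7, against 41.5% and 58.1%. At least 2-fold higher were 8 members in HCC827 and 10 in NCI-H1975, and at least 2-fold lower were 3 and 0, beside the shares of all genes given above. A doubling or more in each line was seen for 5 members, ARG2, ASNS, CHAC1, CTH and SLC7A11, against 1.07% of all tested genes, and 0 were at least 2-fold lower, against 0.502%. No member passed the adjusted test of limma (0 members, against 1 gene or 0.00837% of all), and at an unadjusted p under 0.05 there were 12 higher and 1 lower, against 10.0% and 16.8%. When 1 of the 6 libraries was left out, 3 to 21 members passed, while 0.284% to 37.8% of all genes did. The 21 came, with 37.8% of all genes, without the NCI-H1975 library at 5 µM, where the dose rests on HCC827 alone and the median of the members was -0.10, and 9 passed, with 1.92% of all genes, without the HCC827 library at 5 µM.

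The direct comparison of the doses put numbers on this turn. From 2.5 µM to 5 µM, 25 of the 34 members were lower in HCC827, against 59.9% of all tested genes, and 21 were lower in NCI-H1975, against 62.8%. In NCI-H1975 the split of 13 higher and 21 lower became 17 and 17 with quantile normalization and 9 and 25 with equal FPKM totals. In HCC827, 9 members were at least 2-fold lower at 5 µM than at 2.5 µM, against 4.61% of all tested genes: ASS1, CBS, GPT2, PCK2, PHGDH, SLC1A4, SLC6A9, SLC7A1 and SLC7A5. In NCI-H1975 none was (0 members, against 0.0418%). The median step was -0.47 in HCC827 and -0.02 in NCI-H1975, beside -0.13 and -0.07 over all genes. The 9 became 8 with quantile normalization and stayed 9 with equal FPKM totals.

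No member passed limma's test of 5 µM against 2.5 µM (0 members, 0% of all genes, smallest adjusted p of a member 0.411), and 2 were higher and 5 lower at an unadjusted p under 0.05, against 3.71% and 8.05%. In both lines 18 were lower and 6 higher at 5 µM than at 2.5 µM, against 44.4% and 21.3% of all tested genes. In HCC827, 13 members (38.2%) were above DMSO at 2.5 µM and below it at 5 µM, against 20.7% of all tested genes. In NCI-H1975 that shape held for 2 members (5.88%), against 11.9%, while 16 (47.1%) were lower at 5 µM than at 2.5 µM but still above DMSO, against 13.6%. Without the HCC827 library at 5 µM the median of the fitted step was 0.01, and without the NCI-H1975 library at 5 µM 19 members passed, with 29.1% of all genes.

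**Figure D3:**
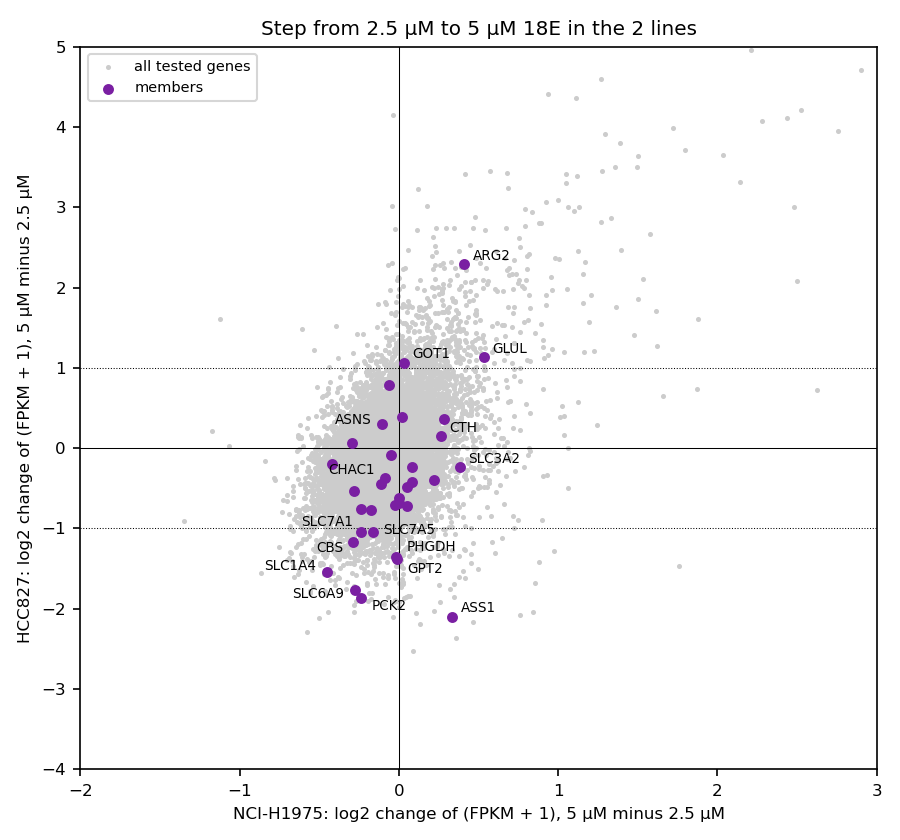
Log2 change of (FPKM + 1) from 2.5 µM to 5 µM of 18E in NCI-H1975 (horizontal axis) and HCC827 (vertical axis) for the 34 tested members (purple) and all tested genes (grey), with dotted lines at a 2-fold change in HCC827; 3 genes that are no members lie outside the plotted range. Members lie near 0 on the horizontal axis and spread from -2.10 for ASS1 to 2.30 for ARG2 on the vertical one.

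ASS1 and PCK2 had the largest steps down in HCC827, -2.10 and -1.86 on the log2 scale. PCK2, the mitochondrial enzyme that makes phosphoenolpyruvate, was at 13.4 FPKM with DMSO, 42.6 with 2.5 µM and 11.0 with 5 µM in HCC827, and at 6.07, 20.1 and 16.9 FPKM in NCI-H1975. ASS1, which makes argininosuccinate on the way to arginine, was at 44.9, 90.1 and 20.3 FPKM in HCC827 and at 77.2, 87.9 and 111 FPKM in NCI-H1975, with the reservation that ASS1 has many pseudogenes. GPT2, a mitochondrial alanine aminotransferase, was at 79.1, 88.2 and 33.4 FPKM in HCC827 and at 9.67, 14.0 and 13.9 FPKM in NCI-H1975. For these 3 genes the HCC827 library at 5 µM was the lowest of that line and the NCI-H1975 library at 5 µM stayed above its DMSO.

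ARG2, GLUL and GOT1 went the other way in HCC827 and were the 3 members at least 2-fold higher at 5 µM than at 2.5 µM there, against 5.23% of all tested genes. ARG2, the mitochondrial arginase, was at 0.37 FPKM with DMSO, 1.10 with 2.5 µM and 9.32 with 5 µM in HCC827, and at 2.66, 5.48 and 7.61 FPKM in NCI-H1975. GLUL, which makes glutamine, was at 1.82, 2.43 and 6.54 FPKM in HCC827 and did not exceed 0.97 FPKM in NCI-H1975. GOT1, the cytosolic aspartate aminotransferase, was at 23.5, 29.2 and 62.2 FPKM in HCC827 and at 87.6, 98.4 and 100.5 FPKM in NCI-H1975. GOT2, its mitochondrial counterpart, was at 139, 112 and 105 FPKM in HCC827 and between 99.5 and 103 FPKM in NCI-H1975. Among the branched-chain aminotransferases, BCAT2, the mitochondrial one, was at 17.2, 16.3 and 10.2 FPKM in HCC827 and at 27.0, 23.9 and 23.9 FPKM in NCI-H1975. BCAT1, the cytosolic one, and SLC43A1, a carrier of large neutral amino acids, did not pass the filter and reached at most 1.47 and 1.10 FPKM in this experiment.

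The change with 18E was compared between the lines directly, as HCC827 minus NCI-H1975. The median difference over the members was -0.38 on the log2 scale, against 0.00 over all genes. It was lower in HCC827 at both doses for 16 members and higher for 6, against 32.8% and 34.1% of all tested genes. ASNS had a difference of -1.30 ± 0.30 (SE), the only member at least 2-fold apart at both doses. No member passed limma's interaction test (0 members, 0% of all genes, adjusted p = 0.999 for each member). At an unadjusted p under 0.05, 1 was higher and 2 were lower, against 0.820% and 0.895%. In the control libraries themselves, GPT2 and PSPH were at least 2-fold higher in HCC827 than in NCI-H1975 in both experiments, and GOT1 and OAT at least 2-fold lower, 2 of 33 members each, against 6.75% and 9.14% of all genes.

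Regulators of the same response were read beside the members. ATF4 itself was at 265 FPKM with DMSO, 340 with 2.5 µM and 440.2 with 5 µM in HCC827, and at 146, 257 and 276 FPKM in NCI-H1975. DDIT3, a transcription factor of prolonged stress, was at 18.7, 92.2 and 402 FPKM in HCC827 and at 18.2, 53.3 and 156 FPKM in NCI-H1975. CEBPG, a partner of ATF4, was at 11.7, 21.3 and 41.7 FPKM in HCC827 and at 7.44, 14.0 and 13.0 FPKM in NCI-H1975. In HCC827 the 3 regulators were therefore highest at 5 µM, the dose at which 25 members were lower than at 2.5 µM. SESN2, TRIB3, ATF3 and CEBPB were highest at that dose in HCC827 as well. The list as a whole was mixed there: of its 24 tested genes, 14 were higher and 10 lower at 5 µM than at 2.5 µM. Among the 10, DDIT4, an inhibitor of mTORC1 signalling, was at 387 FPKM with DMSO, 550.4 with 2.5 µM and 316 with 5 µM, and STC2, a secreted glycoprotein, at 74.5, 107 and 44.4 FPKM, both named after their values were seen. Of 24 tested regulators and ATF4 targets outside amino acid metabolism, 21 were higher and 1 lower in both lines at 2.5 µM, against 32.2% and 31.6% of all genes, 15 were higher and 2 lower at 5 µM, against 25.5% and 40.8%, and 0 passed the adjusted test at either dose. The eIF2α kinase genes differed among themselves at 5 µM. EIF2AK3, for the kinase that senses unfolded protein, had a log2 change of 0.67 ± 0.23, EIF2AK1, for the heme-sensing one, -0.42 ± 0.15, EIF2AK2, for the one that senses viral RNA, -0.21 ± 0.20, and EIF2AK4, for the one that senses amino acid shortage, -0.23 ± 0.20 (limma adjusted p of 0.155 or more). At 2.5 µM the 4 lay between -0.05 and 0.13.

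Other genes of amino acid metabolism were taken from lists of pathway membership, and their counts stand against the same shares of all genes. Of 34 other tested enzymes 12 were higher and 12 lower in both lines at 2.5 µM, and 5 were higher and 14 lower at 5 µM. SAT1, which acetylates polyamines, had a log2 change of 2.57 ± 0.31 at 5 µM and ODC1, which starts polyamine synthesis from ornithine, 1.21 ± 0.21 (SE, n = 2 lines). Of 24 other tested amino acid transporters 11 were higher and 8 lower at 2.5 µM, and 5 and 11 at 5 µM. Of 20 cytosolic aminoacyl-tRNA synthetases, which charge tRNA with amino acids, 18 were higher and 0 lower in both lines at 2.5 µM, and 10 and 4 at 5 µM. AARS1, for alanine, had 0.93 ± 0.19 and GARS1, for glycine, 0.75 ± 0.14 at 2.5 µM. None of these genes passed the adjusted test.

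With siDYN the members lay closer to their controls than with 2.5 µM 18E, a difference in medians that was not tested. Of the 33 tested, 14 were higher than siCON in all 4 libraries (2 siRNAs in 2 lines) and 4 were lower, against 24.9% and 25.6% of all 11718 tested genes. The split of 14 and 4 became 12 and 7 with quantile normalization and 11 and 7 with equal FPKM totals. The median log2 change was 0.12, against 0.01 over all genes. None was at least 2-fold higher in all 4 libraries (0 members, against 0.230%) and none at least 2-fold lower (0.0341%). No member passed limma's test (0 members, 0% of all genes), and 8 were higher and 2 lower at an unadjusted p under 0.05, against 12.6% and 13.4%. The smallest adjusted p of a member was 0.0879, for PCK2. Of the 24 tested regulators and ATF4 targets outside amino acid metabolism, 13 were higher and 4 lower in all 4 libraries, against 24.9% and 25.6%. Their median log2 change was 0.46, against 0.01 over all genes, and 0 passed limma's adjusted test.

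PCK2 was at 14.7 and 11.0 FPKM with siDYN-2 and siDYN-1 in HCC827 against 5.25 FPKM with siCON, and at 11.1 and 12.7 FPKM in NCI-H1975 against 6.07 FPKM. The 4 siDYN libraries did not overlap the 2 siCON libraries, and the fitted log2 change was 1.00 ± 0.17 (SE). CHAC1 was at 10.1 and 7.20 FPKM with siDYN-2 and siDYN-1 in HCC827 against 3.81 FPKM with siCON, and at 16.7 and 5.63 FPKM in NCI-H1975 against 2.13 FPKM. Its fitted change was 1.39 ± 0.40 (adjusted p = 0.114). PHGDH was at 53.6 and 48.0 FPKM with siDYN-2 and siDYN-1 in HCC827 against 29.9 FPKM with siCON, and at 24.0 and 34.0 FPKM in NCI-H1975 against 18.2 FPKM (0.68 ± 0.17, adjusted p = 0.103). PSPH was also above siCON in all 4 libraries, with log2 changes between 0.02 and 0.19, but with siDYN-2 it was below siCON in HCC827 under quantile normalization and in both lines under equal FPKM totals. PSAT1 was on the other side: it was at 41.8 and 45.4 FPKM in HCC827 against 46.3 FPKM with siCON, and at 36.5 and 38.2 FPKM in NCI-H1975 against 49.4 FPKM.

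Both proline reductases were above siCON in all 4 libraries. PYCR1 was at 61.2 and 60.0 FPKM with siDYN-2 and siDYN-1 in HCC827 against 37.7 FPKM with siCON, and at 71.9 and 68.2 FPKM in NCI-H1975 against 49.5 FPKM (log2 change 0.58 ± 0.12, limma adjusted p = 0.0981). PYCR3 was at 18.6 and 12.1 FPKM in HCC827 against 8.57 FPKM, and at 16.3 and 12.2 FPKM in NCI-H1975 against 7.77 FPKM (0.76 ± 0.21, adjusted p = 0.108). SLC3A2 was at 172 and 206 FPKM in HCC827 against 139.6 FPKM with siCON, and at 239 and 169 FPKM in NCI-H1975 against 117 FPKM (0.60 ± 0.19, adjusted p = 0.121). Lower in all 4 libraries were SLC38A2, SLC38A1, GOT2 and PSAT1. SLC38A2 was at 27.8 and 27.8 FPKM with siDYN-2 and siDYN-1 in HCC827 against 33.7 FPKM with siCON, and at 15.2 and 25.3 FPKM in NCI-H1975 against 40.0 FPKM (-0.63 ± 0.25, adjusted p = 0.175).

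**Figure D4:**
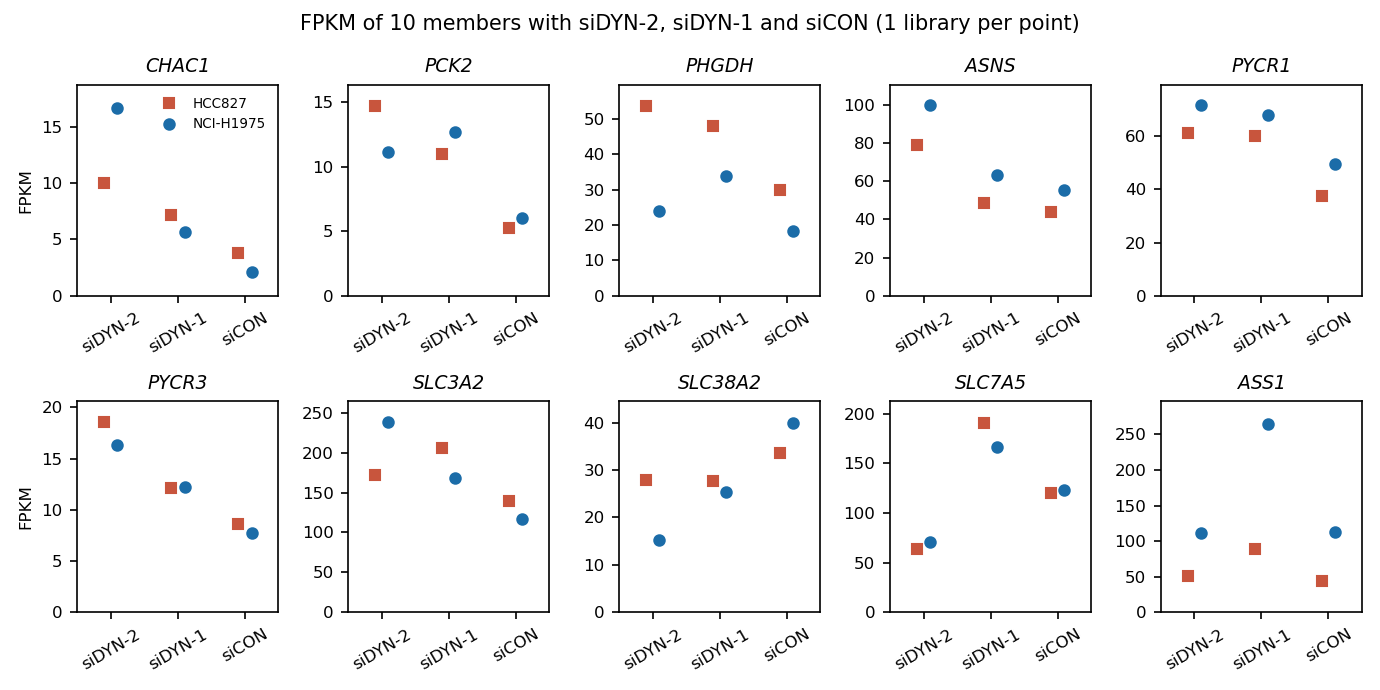
FPKM (vertical axis, from 0) of 10 members with siDYN-2, siDYN-1 and siCON (horizontal axis) in HCC827 (squares) and NCI-H1975 (circles), 1 library per point. PCK2, CHAC1, PYCR1, PYCR3 and SLC3A2 lie above the siCON library of their line with both siRNAs, while SLC7A5 and ASS1 lie lower with siDYN-2 than with siDYN-1 in both lines.

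The siRNAs differed from each other in 2 members. SLC7A5 and ASS1 fell with siDYN-2 relative to siDYN-1, the only members (2 of 33, 6.06%) to pass limma's adjusted test, against 71 of all tested genes (0.606%). SLC7A5 lies at chr16:87830023-87869488 (minus strand) and ASS1 at chr9:130444929-130501274 (plus strand) in GENCODE 29. SLC7A5 was at 64.0 FPKM with siDYN-2 and 191 FPKM with siDYN-1 in HCC827, where siCON had 120.2 FPKM, and at 70.3 and 167 FPKM in NCI-H1975, where siCON had 124 FPKM. It was thus below siCON with siDYN-2 and above it with siDYN-1 in both lines, and its log2 change between the siRNAs was -1.40 ± 0.13 (SE, n = 2 lines, limma adjusted p = 0.0389). ASS1 was at 50.4 FPKM with siDYN-2 and 89.4 FPKM with siDYN-1 in HCC827, where siCON had 44.3 FPKM, and at 111 and 264 FPKM in NCI-H1975, where siCON had 112 FPKM. Its level with siDYN-2 lay near siCON in both lines, and the change between the siRNAs was -1.03 ± 0.14 (limma adjusted p = 0.0489).

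Both calls sat close to the threshold. Neither passed without the filter on low values (adjusted p = 0.166 each), and ASS1 did not pass with equal FPKM totals (0.0567), while SLC7A5 did (0.0456). Without the HCC827 library of siDYN-1 neither passed (0.0628 for SLC7A5 and 0.0660 for ASS1), and without the NCI-H1975 library of siDYN-1 only SLC7A5 passed, at 0.00518. SLC7A5 was also the 1 member at least 2-fold lower in both lines, against 0.239% of all genes. At an unadjusted p under 0.05, 7 members were higher and 3 lower, against 13.0% and 7.90%. In both lines 11 members were higher and 8 lower with siDYN-2 than with siDYN-1, against 38.0% and 27.7% of all genes, and 11 and 13 with quantile normalization. Next in order of p were ASNS, at 78.9 FPKM with siDYN-2 and 48.8 with siDYN-1 in HCC827 and at 99.7 and 63.2 FPKM in NCI-H1975 (0.67 ± 0.12, limma adjusted p = 0.0608), and SLC1A5, at 79.4 and 42.2 FPKM in HCC827 and 69.4 and 45.8 FPKM in NCI-H1975 (0.74 ± 0.17, adjusted p = 0.0888). Of the 24 regulators and ATF4 targets, ATF3 and PPP1R15A passed the same comparison, with log2 changes of 1.60 ± 0.22 and 1.04 ± 0.13 (adjusted p = 0.0489 and 0.0431). ATF4 was at 321 FPKM with siDYN-2 and 229 FPKM with siDYN-1 in HCC827 and at 308 and 172 FPKM in NCI-H1975, beside 236 FPKM in HCC827 and 162 FPKM in NCI-H1975 with siCON.

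The response to siDYN was not shown to differ between the lines. No member passed limma's interaction test of HCC827 minus NCI-H1975 (0 members, 0% of all genes, adjusted p = 1.00), and the median difference was 0.08, against 0.01 over all. It was higher in HCC827 with both siRNAs for 14 members and lower for 8, against 35.3% and 32.0% of all genes, and for 16 and 5 with equal FPKM totals. At an unadjusted p under 0.05, 1 was higher and 0 were lower, against 0.845% and 0.674%.

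The experiments were set side by side gene by gene, each against its own controls. Of the 33 members tested in both, 12 were higher in all 4 libraries with 18E, against 17.8% of 11449 genes, and 14 in all 4 libraries with siDYN, against 24.8%. Both held for 7 members: ARG2, ASNS, CHAC1, MTHFD2, PYCR1, SLC3A2 and SLC7A11. That is 58.3% of the 12 and 50% of the 14, where over all genes the shares were 40.4% and 29%. With equal FPKM totals SLC7A11 left this set, since its log2 change in NCI-H1975 with siDYN-1 was then -0.02. Lower in all 4 libraries were 3 members with 18E and 4 with siDYN, against 24.0% and 26.0% of all genes. No member was lower in all 8 libraries (0 members, against 10.6%). PSAT1 was higher in all libraries with 18E and lower in all with siDYN. It was the 1 member with opposite signs in the experiments, beside 570 of the 11449 genes. CTH, at 1.45 or more in each library with 18E, had log2 changes with siDYN-2 and siDYN-1 of 0.85 and 0.59 in HCC827 and of 0.05 and -0.12 in NCI-H1975.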

How the data were processed

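The authors deposited FPKM values, per the file headers, in 1 table for each experiment. Bowtie 0.12.2 and the builds GRCh38.p12 and mm8 (a mouse build) are named per the submitters' processing notes with no role; no source used here states the quantification tool or whether strand was used. Values showed no steps of whole reads (the fullest bin of ratios held 3.0% of low genes), so counts were not recovered. Left out were 20 genes with missing values in the 18E experiment and 20 lines of spilled text in each table. From the values log2(FPKM + 1) was computed, which understates changes of low genes, and genes reaching 1 FPKM in 2 or more libraries of a table were tested with limma 3.58.1 (R 4.3.3) with a variance trend, two-sided, at a Benjamini-Hochberg adjusted p under 0.05. Cell line was a block, since samples of 1 line are paired by that line. The difference between lines was an interaction with doses or siRNAs as replicates. The fit was tested on simulated data with independent noise of equal size for all genes. In the comparisons of treatments the simulated lines shared each change, so lines that respond differently were not covered. All 36 members are described, with stress response regulators and, of the other lists, the up to 3 genes with the largest mean change of 1 sign; members, lists and tests were chosen with earlier results of these data known. Gene coordinates are from GENCODE 29 and promoter sequences from RefSeq.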

Additional observations from a re-analysis of the deposited data

Results flagged for a closer look

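Each of the following members had every treated library of one line on one side of its control and every treated library of the other line on the other side. A change of any size counted, and the share of all genes that met this rule was not computed. The difference between the lines did not pass limma's interaction test for any of them. CBS with 18E had log2 changes at 2.5 µM and 5 µM of -0.02 and -1.18 in HCC827 and of 0.72 and 0.44 in NCI-H1975, a fitted difference of -1.18 (adjusted p = 0.999). SLC38A2 with 18E had 0.64 and 1.02 in HCC827 and -0.14 and -0.12 in NCI-H1975, a difference of 0.96 (adjusted p = 0.999). OAT had 0.20 and 0.31 with siDYN-2 and siDYN-1 in HCC827 and -0.34 and -0.24 in NCI-H1975, a difference of 0.54 (adjusted p = 1.00). SLC6A9 had 1.04 and 0.47 with siDYN-2 and siDYN-1 in HCC827 and -0.55 and -0.33 in NCI-H1975, a difference of 1.19 (adjusted p = 1.00).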

How the results depend on the processing

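With 1 library per line and treatment, each fit leaves 2 or 3 residual degrees of freedom for a gene. To these limma adds what it borrows from the spread of all genes. With so few libraries and depth unknown, a missed threshold does not show that a gene did not differ. The median log2 change of the members with 2.5 µM 18E, 0.57 as reported, was 0.59 with a pseudocount of 0.1, 0.53 with no filter, with quantile normalization or with equal FPKM totals, and 0.39 with the doses pooled. With siDYN the median, 0.12 as reported, was 0.18 with a pseudocount of 0.1, 0.07 with quantile normalization, 0.01 with equal FPKM totals and 0.16 with siDYN-1 alone. For siDYN-2 against siDYN-1 it was -0.05 with quantile normalization, against 0.00. Members past the adjusted test numbered 1 at 5 µM with a pseudocount of 0.1, where 16 of all 11953 tested genes passed. They numbered 9 with siDYN-1 alone (12.3% of all genes passed) and 12 with siDYN-2 alone (17% of all genes), where 1 member was at least 2-fold higher in every library. For siDYN-2 against siDYN-1 they numbered 2 as reported, 0 with no filter, 1 with equal FPKM totals and 0 with no variance trend. Without cell line as a replicate block they numbered 0, and the block changed no other call. With equal FPKM totals the median over all genes was -0.19 in NCI-H1975 at 5 µM, against -0.07 as deposited, and the members stood 0.55 above it, against 0.56.

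Leaving out 1 library at a time gave medians of 0.43 to 0.82 at 2.5 µM, -0.10 to 0.47 at 5 µM, -0.50 to 0.01 between the doses, 0.14 to 0.25 for siDYN, -0.07 to 0.08 between the siRNAs, and, for the difference between lines, -0.73 to -0.11 with 18E and 0.07 to 0.16 with siDYN. The median turned at 5 µM (-0.10) without the NCI-H1975 library of that dose and between the doses (0.01) without the HCC827 library at 5 µM, where 1 line alone carries the dose; a further cause was not tested. Members past the test numbered 0 to 6 at 2.5 µM, 3 to 21 at 5 µM, 0 to 19 between the doses, 0 to 3 between the siRNAs and 0 to 0 in the others, while of all genes up to 0.218%, 37.8%, 29.1% and 3.29% passed in the first 4 of these comparisons. At 2.5 µM there were 6 without the HCC827 and 5 without the NCI-H1975 library at 5 µM, and 2 without the HCC827 library of DMSO. Members at least 2-fold higher in every treated library numbered 4 to 9 at 2.5 µM, 5 to 10 at 5 µM and 0 to 1 with siDYN. At 2.5 µM there were 9 without the HCC827 library of DMSO or of 2.5 µM and 7 without the NCI-H1975 one. There the count rests on 1 treated library of the other line, against 0.678% of all genes in NCI-H1975 and 1.24% in HCC827. The 10 at 5 µM likewise rest on the NCI-H1975 library alone, against 1.78%. For siDYN the share of all genes was not computed with a library left out. The interaction could not be fitted without a control library. Of the values of single members 2377 stayed as reported, 265 moved beyond the spread of their libraries, 101 passed the test only under an alternative and 10 of SLC7A5 and ASS1 lost it.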
